A study of Mus musculus with 20 samples.

Results

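Expression of 10 genes of the heat shock response and of the response to mild cold was followed across the RNA-seq libraries of adipocyte progenitor cells (APCs) from inguinal white adipose tissue, the subcutaneous fat of the mouse groin. They were chosen by name, as the 10 rows of the normalized count table whose symbol was Cirbp, Rbm3, Hspa1a, Hspa1b, Hspa8, Hsph1, Hsp90aa1, Hspd1, Hspb1 or Dnajb1, out of 27179 genes. Each symbol had 1 row, and all 10 were among the 13057 genes kept for testing because their normalized reads averaged 10 or more across the 20 libraries. The cells were PDGFRb+, came from male C57BL/6 mice, and were divided by flow cytometry according to the surface peptidase DPP4. The 4 groups of 5 libraries each were DPP4+ APCs after 24 h at 6 °C, DPP4+ APCs at 22 °C, DPP4- APCs after 24 h at 6 °C and DPP4- APCs at 22 °C. The temperatures are read as those at which the mice were kept. No temperature of the fat or of the cells is given in the sources used here, and cold cells below are those of the groups at 6 °C. No mouse carried a named allele or received a named agent. The age of the mice, the time between removal of the fat and lysis of the cells, and whether libraries came from single or pooled mice are not given in the sources used here, so the p-values measure the spread between these libraries, which may be technical in part.

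Heat shock proteins are molecular chaperones, which bind unfolded or misfolded proteins and help them to fold, to be taken apart or to be degraded. When unfolded protein builds up, heat shock factor HSF1 binds arrays of inverted GAA repeats (heat shock elements) in the promoters of chaperone genes and raises their transcription. Cirbp and Rbm3 encode small RNA-binding proteins, each with a single RNA recognition motif and a glycine-rich tail, that mammalian cells make in larger amounts under mild hypothermia. Enzymatic dissociation and sorting of tissue are known to induce heat shock and immediate early genes in freshly isolated cells.

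Of the 10 genes, 7 had promoter entries in the RefSeq table (GRCm38.p6), with 11 start sites between them, and the 250 bases before each start were searched on both strands. Rbm3, Hspa8 and Hsp90aa1 had none. The promoters of Hspa1a, Hsph1, Hspd1 and Hspb1 are shown because they belong to the inducible pair of HSP70 genes, to the genes with the largest rise and the next largest rise in cold DPP4+ cells, and to the gene that passed the test in cold DPP4- cells. Capitals mark the GAA and TTC units of heat shock elements, each sequence reads 5′ to 3′ on the strand of its gene, and the Hspa1a sequence is the whole window chr17:34972157-34972406 (minus strand).
Hspa1a: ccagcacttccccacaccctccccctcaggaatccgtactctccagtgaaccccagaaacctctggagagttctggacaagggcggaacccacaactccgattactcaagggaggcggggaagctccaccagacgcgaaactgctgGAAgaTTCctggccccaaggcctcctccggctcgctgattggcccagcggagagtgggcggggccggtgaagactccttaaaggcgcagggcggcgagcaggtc
The other sequences are 30-base stretches around the element, at chr5:149636351-149636380 for Hsph1 (minus strand), chr1:55088053-55088082 for Hspd1 (minus strand) and chr5:135887801-135887830 for Hspb1 (plus strand).
Hsph1: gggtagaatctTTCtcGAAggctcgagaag
Hspd1: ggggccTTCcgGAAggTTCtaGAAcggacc
Hspb1: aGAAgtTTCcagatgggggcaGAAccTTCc
The window of Hspa1b differed from that of Hspa1a at 3 of 250 bases, C44T, T47C and T249G (Hspa1a base, position counted from 1 at the 5′ end, Hspa1b base), so that 98.8% of it was identical. An element of 3 units, TTCNNGAANNTTC or its reverse complement GAANNTTCNNGAA, was found in the window of Hspd1 alone among the 7 genes, from 144 to 127 bases before 1 of its 2 annotated starts, where both forms overlapped. That window lies downstream of the other start, all 250 of its bases are annotated as exon of Hspd1 or of another gene (GENCODE), and the window before that other start held no such element. The same motif was in 0.466% of the 32851 mouse promoters of the table. An element of 2 units, TTCNNGAA or GAANNTTC, each its own reverse complement, was in windows of 5 of the 7 genes (Hspa1a, Hspa1b, Hspb1, Hspd1 and Hsph1) and in 12.8% of all promoters. The match lay 104 to 97 bases before the start in Hspa1a and Hspa1b, 54 to 47 bases before 1 start of Hsph1 and 33 to 26 before another, and at 117 to 110 and 97 to 90 bases in Hspb1. These letters were not in the windows of Cirbp and Dnajb1. A match is a description of the sequence and not evidence of binding.

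In the annotation of GRCm38.p6 the genes lie at chr10:80165990-80172786 (Cirbp, plus strand), chrX:8138975-8145880 (Rbm3, minus), chr17:34969359-34972156 (Hspa1a, minus), chr17:34956429-34959238 (Hspa1b, minus) and chr9:40801276-40805202 (Hspa8, plus). The others lie at chr5:149616843-149636498 (Hsph1, minus), chr12:110691036-110696395 (Hsp90aa1, minus), chr1:55077833-55088243 (Hspd1, minus), chr5:135887919-135889563 (Hspb1, plus) and chr8:83608175-83612653 (Dnajb1, plus). Hspa1a and Hspa1b have a single exon block, and Hsph1 has the most, 19.

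The libraries held 8.49 to 18.8 M reads (M, 1000000). Dpp4 averaged 10035 ± 2091 and 8546 ± 1158 normalized reads in DPP4+ cells at 6 °C and 22 °C, against 61.3 ± 42.4 and 67.9 ± 21.6 in DPP4- cells at 6 °C and 22 °C (SD, n = 5 each), and no library went against its label. Pdgfrb, Pdgfra, Cd34, Ly6a and Dcn were present in every group. Hemoglobin transcripts were at or near 0, with Hba-a1 at 0 in all 20 libraries, and Cd3e and Lep stayed under 4 normalized reads on average in each group. Totals of normalized reads were 10.2 to 12.1 M in DPP4+ libraries and 15.4 to 17.3 M in DPP4- libraries, so a comparison of the populations depends on the scaling, as given below where it matters.

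Per kilobase of exon, the constitutive HSP70 chaperone Hspa8 stood highest of the 10 genes in all 4 groups and Cirbp lowest. The length is that of all annotated exons of a gene joined, which can exceed that of any 1 transcript. For Hspa8 it was 4301 bases, against 3158 in its longest transcript, so the places of the genes depend on the annotation. Hspa8 averaged 2216 and 1596 normalized reads per kb in DPP4+ cells at 6 °C and 22 °C, and 3584 and 3110.3 in DPP4- cells at 6 °C and 22 °C. Cirbp averaged 75.8, 94.6, 62.0 and 58.2 normalized reads per kb in the same order of groups. Hsph1, the HSP110 chaperone that releases ADP from HSP70 and so resets its cycle, changed its place most. It was the 4th highest in cold DPP4+ cells, at 759 normalized reads per kb, and the 9th at 22 °C, at 141, where its libraries lay within reach of those of Hspa1a above it and clear of those of Cirbp. In cold DPP4+ cells its neighbours Hspd1 above it overlapped with it and Hspb1 below it did not. Dnajb1, the J-domain protein that delivers clients to HSP70 and starts its ATP hydrolysis, was the 2nd highest in DPP4- cells at both temperatures but 6th and 5th in DPP4+ cells at 6 °C and 22 °C. In DPP4- cells its libraries overlapped with those of the next gene below, Hspa1b at 6 °C and Hsp90aa1 at 22 °C. In DPP4+ cells they overlapped with those of Hspa1b below it at both temperatures.

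**Figure D1:**
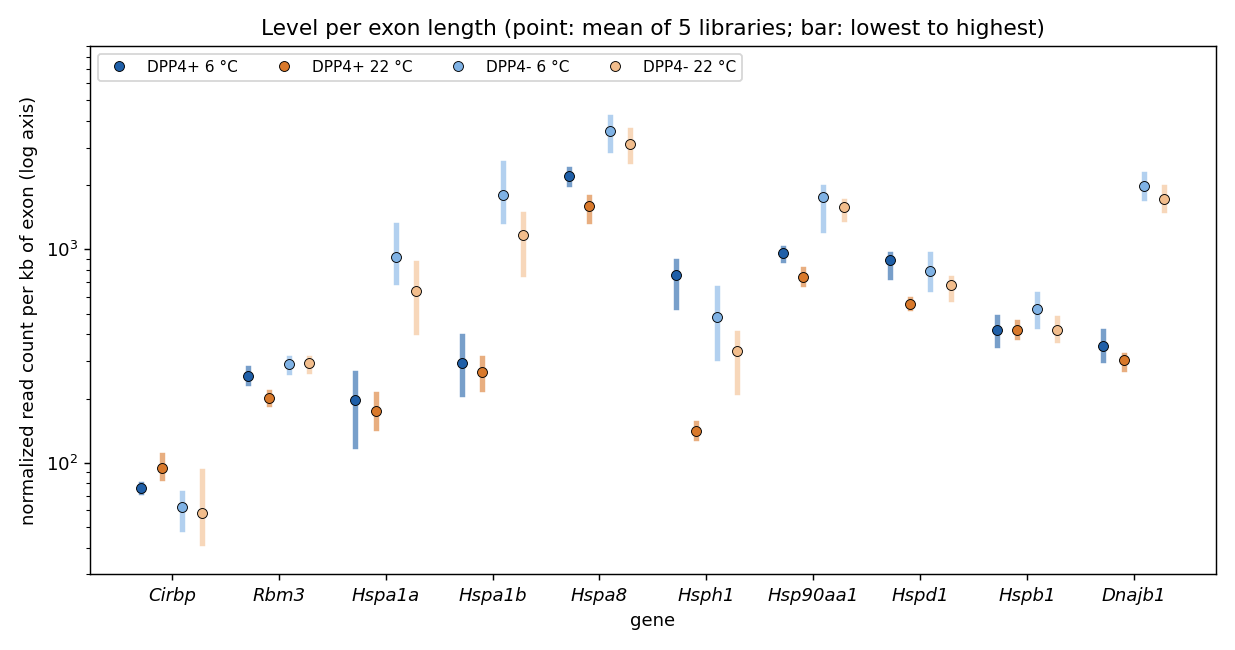
Normalized read count per kb of exon (log axis) for the 10 genes in the 4 groups, with points for the mean of 5 libraries and bars from the lowest to the highest library. Hsph1 lay at 759 in cold DPP4+ cells against 141 in DPP4+ cells at 22 °C, and Dnajb1, Hspa1a and Hspa1b lay lower in DPP4+ than in DPP4- cells.

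The first comparison asked what 24 h at 6 °C did to these genes in DPP4+ cells. By limma, 6 of the 10 genes rose (Hsph1, Hspd1, Hspa8, Hsp90aa1, Rbm3 and Dnajb1) and none fell, with Benjamini-Hochberg adjustment over all 13057 genes at a threshold of 0.05. In that comparison 46.1% of all genes tested passed in either direction and 23.5% rose. The median log2 difference was 0.29 over the 10 genes and 0.0058 over all genes tested. The libraries of the 2 groups did not overlap for 5 genes that were higher and 1 that was lower, against 38.4% of all genes in either direction. Each library holds RNA of many cells, so a change in the share of cells that express a gene and a change in RNA per cell cannot be told apart.

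Hsph1 rose most. In DPP4+ cells it had 6422, 5444, 5862, 5926 and 3918 normalized reads in the 5 libraries at 6 °C, against 954, 1017, 1117, 1037 and 1012 at 22 °C. Every cold library stood above every library at 22 °C, and the lowest cold library, number 5, was still more than 3 times the highest library at 22 °C. The means were 5514 ± 957 at 6 °C and 1028 ± 59.0 at 22 °C (SD, n = 5 each), a 5.37-fold rise, and the fitted log2 difference was 2.40 ± 0.18 (SE; limma adjusted p = 1.83e-09). Only 98 of the 13057 genes tested, 0.751%, had a larger log2 difference. Leaving out any 1 library kept it between 2.34 and 2.52.

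Hspd1, the mitochondrial HSP60 chaperonin, rose next. It had 2523, 2345, 2485, 2433 and 1970.0 normalized reads in DPP4+ cells at 6 °C, against 1520.4, 1404, 1541, 1482 and 1402 at 22 °C. The groups were clear of each other, and cold library 5 was again the lowest of its group. The rise was 1.6-fold (log2 0.67 ± 0.083, limma adjusted p = 4.32e-07). Hspe1, its neighbour, which encodes HSP10, the co-chaperonin of HSP60, lies head to head with it and shares 112 exon bases with it on the other strand, so reads of that stretch cannot be assigned without strand. Hspe1, looked up after its values were seen, rose by 0.42 on the log2 scale in DPP4+ cells (limma adjusted p = 6.56e-04) and by 0.42 in DPP4- cells (limma adjusted p = 0.00850).

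Hspa8 had 9039.6, 9892, 10206, 9752 and 8761 normalized reads in DPP4+ cells at 6 °C, against 5819.8, 6545, 7169, 7200.1 and 7580.2 at 22 °C. All 5 cold libraries were higher than all 5 at 22 °C, a 1.39-fold difference of means (log2 0.48 ± 0.096, limma adjusted p = 2.66e-04). Hspa8 is known to have processed pseudogenes and hosts small nucleolar RNAs, and how reads with several matches were counted is not given in the sources used here. Hsp90aa1, the stress-inducible cytosolic HSP90, had 3612, 3848, 3993, 3909.7 and 3509.9 normalized reads in DPP4+ cells at 6 °C, against 2717, 2925, 3178, 2902 and 2853 at 22 °C. Here too the groups did not overlap, and the rise was 1.29-fold (log2 0.37 ± 0.093, limma adjusted p = 0.00206).

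Dnajb1 passed the test by less. It had 971, 1219.6, 1321, 1016 and 1135 normalized reads in DPP4+ cells at 6 °C, against 881, 997, 1001, 930.2 and 1025 at 22 °C. Cold libraries 1 and 4 lay within the range of the libraries at 22 °C. The log2 difference of 0.22 ± 0.083 had a limma adjusted p of 0.0329, and without DPP4+ cold library 2 or 3 or DPP4+ 22 °C library 1 or 4 the adjusted p was 0.0873, 0.121, 0.0892 and 0.0687. With totals made equal it was 0.0665 and with quantile normalization 0.178.

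Of the 2 cold-inducible RNA-binding protein genes, Rbm3 rose in DPP4+ cells and Cirbp did not pass the test. Rbm3 had 1198, 1187, 1216, 1306 and 1116 normalized reads at 6 °C, against 954, 881, 926, 1008 and 954 at 22 °C. The lowest cold library exceeded the highest library at 22 °C, and the rise was 1.27-fold (log2 0.35 ± 0.057, limma adjusted p = 2.23e-05). Cirbp had 189.7, 197, 203, 191 and 206 normalized reads at 6 °C, against 282, 259, 221, 247 and 222 at 22 °C. All 5 cold libraries of Cirbp lay below all 5 libraries at 22 °C, but the log2 difference of -0.31 ± 0.14 did not pass (limma adjusted p = 0.0772). The standard error is shared by the 4 groups, and the group with the widest spread was DPP4- cells at 22 °C, where library 1 stood apart. Without that library the adjusted p was 0.0129, by edgeR it was 0.0401 and by DESeq2 0.0372, and over all 29 alternatives it ran from 0.0129 to 0.172. The test of Cirbp against Rbm3 as a pair of genes was not made.

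The strongly inducible genes of the family showed little difference in DPP4+ cells. Hspa1a had 354, 616, 782, 502 and 657 normalized reads at 6 °C, against 436, 564, 622, 429.7 and 532 at 22 °C. Hspa1b had 586, 755, 1106, 765 and 906 at 6 °C, against 624, 806, 871, 689.6 and 731 at 22 °C. Both encode the same inducible HSP70 protein, their cold libraries spread to both sides of those at 22 °C, and their log2 differences of 0.14 (95% interval -0.31 to 0.58) and 0.12 (-0.26 to 0.51) did not pass. Hspb1, the small heat shock protein HSP27, averaged 433 ± 46.8 normalized reads at 6 °C and 433 ± 34.7 at 22 °C, with a 95% interval of the log2 difference from -0.18 to 0.18. The range at 22 °C lay inside that at 6 °C.

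**Figure D2:**
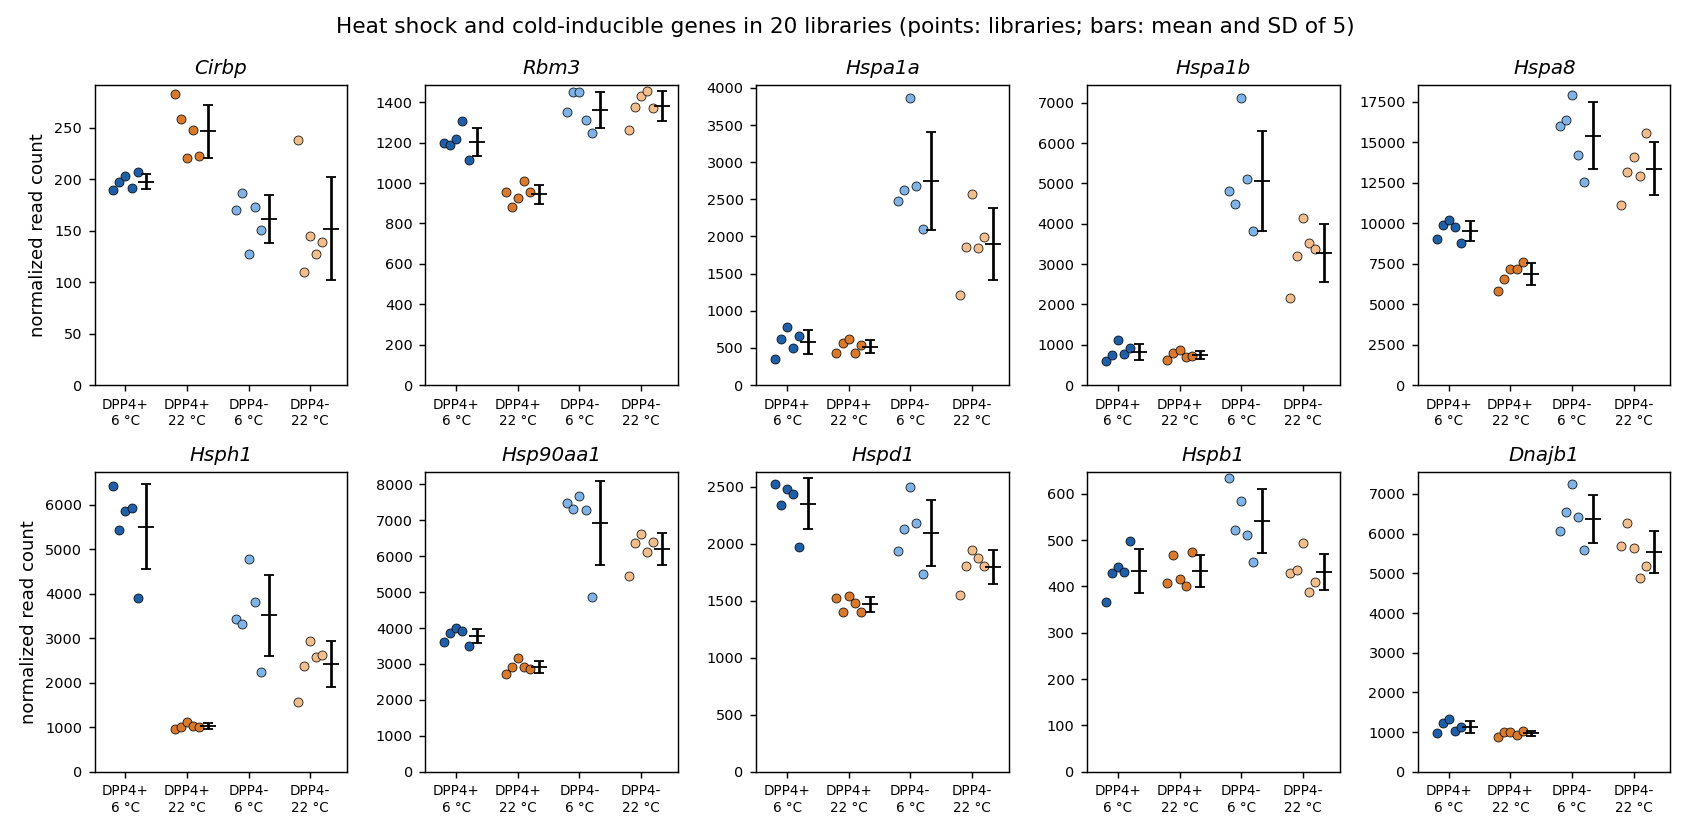
Normalized read counts of the 10 genes in each of the 20 libraries (points), with the mean and SD of 5 libraries (bars), for DPP4+ cells at 6 °C and 22 °C and DPP4- cells at 6 °C and 22 °C. Hsph1 of cold DPP4+ cells lay at 3918 to 6422, against 954 to 1117 in DPP4+ cells at 22 °C, and Dnajb1 lay at 971 to 1321 in DPP4+ and 5590.0 to 7242 in DPP4- cells at 6 °C.

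The same exposure was then examined in DPP4- cells, where 5.22% of all genes tested passed, 1.98% higher and 3.23% lower. Of the 10 genes Hspb1 rose and none fell. Hspb1 had 634, 521, 584, 512 and 453 normalized reads in DPP4- cells at 6 °C, against 428, 435, 494, 388 and 409 at 22 °C. Library 5 at 6 °C lay inside the range at 22 °C, and the rise of 1.26-fold (log2 0.32 ± 0.089) had a limma adjusted p of 0.0333. That call was lost, with adjusted p from 0.0533 to 0.0906, on leaving out any 1 of DPP4- cold libraries 1 and 3 and DPP4- 22 °C libraries 1, 2, 4 and 5. No gene of the 10 had groups clear of each other, where 4.87% of all genes did, 1.65% of all being higher and 3.22% lower. Of 4 mature adipocyte markers tested 2 rose with cold in DPP4- cells, with a sum of 102 to 303 normalized reads at 6 °C, against 16.2 to 116 at 22 °C. Plin1, Adipoq, Cidec and Ucp1 averaged 130, 33.2, 27.8 and 10.1 at 6 °C, against 35.8, 20.1, 12.6 and 0.252 at 22 °C. Of 5 committed preadipocyte markers 1 rose, no endothelial, leukocyte, pericyte or Schwann cell marker passed, and the part of these in the Hspb1 result was not tested.

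The inducible HSP70 genes had larger log2 differences with cold in DPP4- cells than Hspb1 but did not pass the test. Hspa1b had 4806, 4479, 7116, 5105 and 3824 normalized reads in DPP4- cells at 6 °C, against 2147, 3201, 4132, 3516 and 3363 at 22 °C. Hspa1a had 2471, 2627, 3864, 2678 and 2098 at 6 °C, against 1215, 1857, 2575, 1842 and 1988 at 22 °C. For Hspa1b a single library at 22 °C, number 3, reached into the cold range, and the log2 difference was 0.63 ± 0.18 (limma adjusted p = 0.0535; over 29 alternatives 0.00277 to 0.120, 8 of them past the threshold). For Hspa1a the log2 difference was 0.55 ± 0.21 (limma adjusted p = 0.146). Hsph1 averaged 3518 ± 914 normalized reads at 6 °C and 2422 ± 521 at 22 °C in DPP4- cells (SD, n = 5 each), and its log2 difference of 0.53 ± 0.18 did not pass either (limma adjusted p = 0.0913).

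The remaining members did not pass with cold in DPP4- cells either. Hspa8, Hsp90aa1, Hspd1 and Dnajb1 had log2 differences of 0.20, 0.14, 0.22 and 0.20 (limma adjusted p 0.129 to 0.40). For Dnajb1 that is close to the 0.22 that passed in DPP4+ cells. The adjustment is stricter where fewer genes pass, so the counts of calls in the 2 populations are not directly comparable. A limma p of 0.0140 for Dnajb1 in DPP4+ cells gave an adjusted p of 0.0329, while 0.0153 for Hspd1 in DPP4- cells gave 0.129. Rbm3 averaged 1363 ± 87.9 normalized reads at 6 °C and 1379 ± 74.6 at 22 °C, with a 95% interval of the log2 difference from -0.14 to 0.10. Cirbp had 170.3, 187, 127, 173 and 151 normalized reads at 6 °C, against 238, 109.6, 145, 127 and 139 at 22 °C. A single library at 22 °C, number 1, stood above all cold libraries and the other 4 at 22 °C lay below most of them. The median log2 difference of the 10 genes was 0.21, against 8.91e-05 over all genes tested.

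A single library stood low in cold DPP4- cells. Library 5 was the lowest of its group for all 8 heat shock genes, and without it 5 of the 10 genes rose in DPP4- cells: Hspb1, Hspa1b, Hsph1, Hsp90aa1 and Hspd1, with adjusted p of 0.0376 for Hspa1b, 0.0204 for Hsph1, 0.0190 for Hsp90aa1 and 0.0412 for Hspd1. In that fit 565 of 13067 genes passed, 199 higher and 366 lower. The log2 difference of Hsph1 in DPP4- cells was then 0.68. Library 5 was singled out by low values of these same genes, so leaving it out raises their cold effects by construction. Those adjusted p-values are thus a description and not support for a rise. Library 5 was also the deepest of the 20, at 18.8 M reads, against 8.49 to 11.9 M in the rest of its group. The part of depth was not tested. In the same library the endothelial sum, 84.8 normalized reads, and the leukocyte sum, 70.0, were the lowest of the cold DPP4- libraries (highest 290 and 477) and the mature adipocyte sum, 303, the highest (lowest 102), and their part in the result was not tested. At the other end, cold DPP4- library 3 was the highest of its group for 7 of the 8 heat shock genes and had the lowest Cirbp. At 22 °C, DPP4- library 1 was the lowest for 6 of the 8 and had the highest Cirbp, and its sum of 23 immediate early genes, 412199 normalized reads, was the highest of the 20 libraries. DPP4+ library 3 was the highest of its group for 5 of the 8 at both temperatures.

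**Figure D3:**
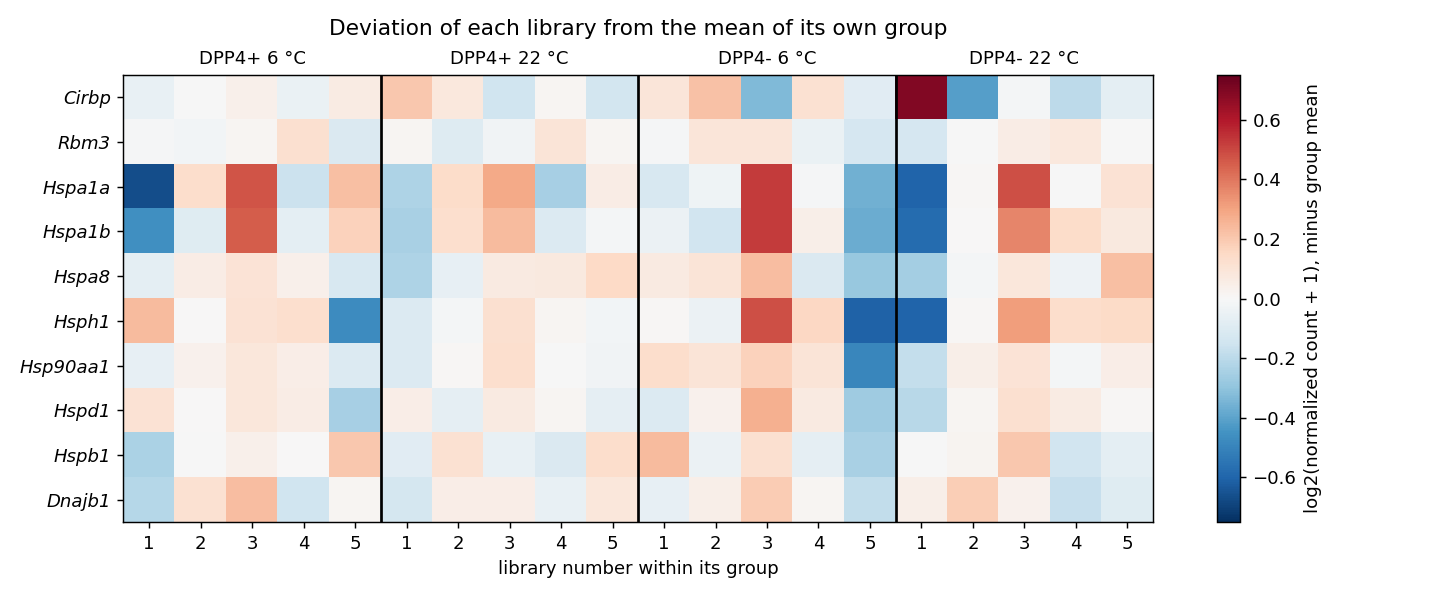
Deviation of each library from its group's mean on the log2(normalized count + 1) scale, for the 10 genes (rows) and the 20 libraries (columns, numbered within groups), with red above and blue below the mean. Most heat shock genes were low together in DPP4- cold library 5, where Hsp90aa1 was 4856, and in DPP4- 22 °C library 1, where Cirbp was 238.

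Whether cold acted differently in the 2 populations was tested as the difference of the cold effects, DPP4+ minus DPP4-. The effect was larger in DPP4+ cells for 3 genes, Hsph1, Hspd1 and Rbm3, and smaller for 1, Hspb1, in a comparison where 33.2% of all genes tested passed. For Hsph1 the difference was 1.88 ± 0.25 on the log2 scale (limma adjusted p = 1.24e-05), and it passed under all 30 alternatives. For Hspd1 it was 0.46 ± 0.12 (limma adjusted p = 0.00422) and for Rbm3 0.37 ± 0.081 (limma adjusted p = 0.00109); each passed under 29 of 30 alternatives and missed the threshold when totals were made equal. For Hspb1 it was -0.32 ± 0.13 with a limma adjusted p of 0.0490, and only 11 of the 30 alternatives passed. The adjusted p of Hspb1 was 0.101 without DPP4+ cold library 1 and 0.0975 without DPP4- cold library 1, and it missed the threshold in 15 of the 20 fits that left out a library. The cold effects of Hspa8, Hsp90aa1, Dnajb1, Hspa1a, Hspa1b and Cirbp did not differ past the threshold. Without DPP4- 22 °C library 1, however, the difference passed for Cirbp (-0.62, adjusted p = 0.00228) and for Hspa8 (adjusted p = 0.0499), and it passed for Cirbp without DPP4- cold library 3 (adjusted p = 0.0471) and with totals made equal (adjusted p = 0.0273). The 95% intervals of those differences reached from -0.23 to 0.26 for Dnajb1 and from -1.05 to 0.040 for Hspa1b.

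Between the populations at 22 °C, 8 of the 10 genes were lower in DPP4+ than in DPP4- cells and Cirbp was higher, where 74.9% of all genes tested passed, 38.7% higher and 36.2% lower. For those 8 genes the libraries of the populations did not overlap, against 64.8% of all genes in either direction and 31.4% lower. The median log2 difference was -1.02 over the 10 genes and 0.030 over all genes. Dnajb1 had the smallest adjusted p of the 10, with 881, 997, 1001, 930.2 and 1025 normalized reads in DPP4+ cells at 22 °C, against 5699.9, 6269, 5647, 4893 and 5181 in DPP4- cells. Every DPP4+ library lay far below every DPP4- library, and the mean was 5.73-fold lower in DPP4+ cells (log2 -2.51 ± 0.083, limma adjusted p = 6.06e-18).

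Hspa1b was 4.40-fold lower in DPP4+ cells at 22 °C (log2 -2.11 ± 0.18, limma adjusted p = 4.40e-09) and Hspa1a 3.67-fold lower (log2 -1.85 ± 0.21, limma adjusted p = 2.67e-07). Hsph1, Hsp90aa1 and Hspa8 were 2.36-, 2.12- and 1.95-fold lower in DPP4+ cells, with log2 differences of -1.21, -1.09 and -0.96 (limma adjusted p of 5.54e-06 or less). These 6 genes kept their direction and their call under all 30 alternatives, but the sizes depend on the scaling. With totals made equal the log2 differences were -0.59 for Hsph1, -0.47 for Hsp90aa1, -0.35 for Hspa8, -1.5 for Hspa1b, -1.24 for Hspa1a and -1.90 for Dnajb1. Rbm3 was lower in DPP4+ cells at a log2 difference of -0.54 and Hspd1 at -0.29, but with totals made equal these became 0.067 and 0.33, above 0, while the median of all genes moved to 0.64, so that both stayed below that median. With totals made equal Hspd1 passed as higher in DPP4+ cells and Rbm3 did not pass. Hspb1 averaged 433 ± 34.7 normalized reads in DPP4+ cells and 431 ± 39.6 in DPP4- cells at 22 °C and did not pass (limma adjusted p = 0.936). With totals made equal its log2 difference was 0.62, which passed as higher in DPP4+ cells but was close to that median of all genes.

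Cirbp was the gene of the 10 that was higher in DPP4+ cells at 22 °C. It had 282, 259, 221, 247 and 222 normalized reads in DPP4+ cells, against 238, 109.6, 145, 127 and 139 in DPP4- cells. All but DPP4- library 1 lay below every DPP4+ library, and the mean was 1.62-fold higher in DPP4+ cells (log2 0.74 ± 0.14, limma adjusted p = 6.08e-05).

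At 6 °C, 7 of the 10 genes were lower in DPP4+ than in DPP4- cells and 1, Hsph1, was higher, where 74.2% of all genes tested passed, 38.5% higher and 35.7% lower. Hsph1 had 6422, 5444, 5862, 5926 and 3918 normalized reads in cold DPP4+ cells, against 3440.1, 3317, 4778, 3812 and 2244 in cold DPP4- cells. The DPP4+ library 5 and the DPP4- library 3 crossed, the other 8 did not, and the mean was 1.57-fold higher in DPP4+ cells (log2 0.67 ± 0.18, limma adjusted p = 0.00238). The sign of the Hsph1 difference was thus opposite at the 2 temperatures, each passing under all 30 alternatives.

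Dnajb1, Hspa1b and Hspa1a remained far lower in DPP4+ cells at 6 °C, 5.63-, 6.15- and 4.72-fold by their means (log2 -2.50 ± 0.083, -2.62 ± 0.18 and -2.26 ± 0.21; limma adjusted p of 1.75e-08 or less). Hsp90aa1 and Hspa8 were 1.83- and 1.62-fold lower (log2 -0.86 and -0.69; with totals made equal -0.39 and -0.22), and Hspa8 missed the threshold with quantile normalization (-0.18, adjusted p = 0.0685). Hspb1 and Rbm3 were lower by less, at log2 differences of -0.32 and -0.18, and with totals made equal these turned to 0.15 and 0.29 beside a median of all genes of 0.50. With totals made equal Rbm3 passed as higher in DPP4+ cells at 6 °C and Hspb1 did not pass. Cirbp had all 5 DPP4+ libraries above all 5 DPP4- libraries at 6 °C, 189.7 to 206 against 127 to 187 normalized reads, but its log2 difference of 0.30 did not pass (limma adjusted p = 0.0613), nor did that of Hspd1, 0.17 (limma adjusted p = 0.0677). With no overlap of libraries, 5 genes were lower and 1 higher, against 57.1% of all genes in either direction, 29.8% higher and 27.4% lower. Comparisons made at 1 temperature and in 1 population share libraries with each other.

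**Figure D4:**
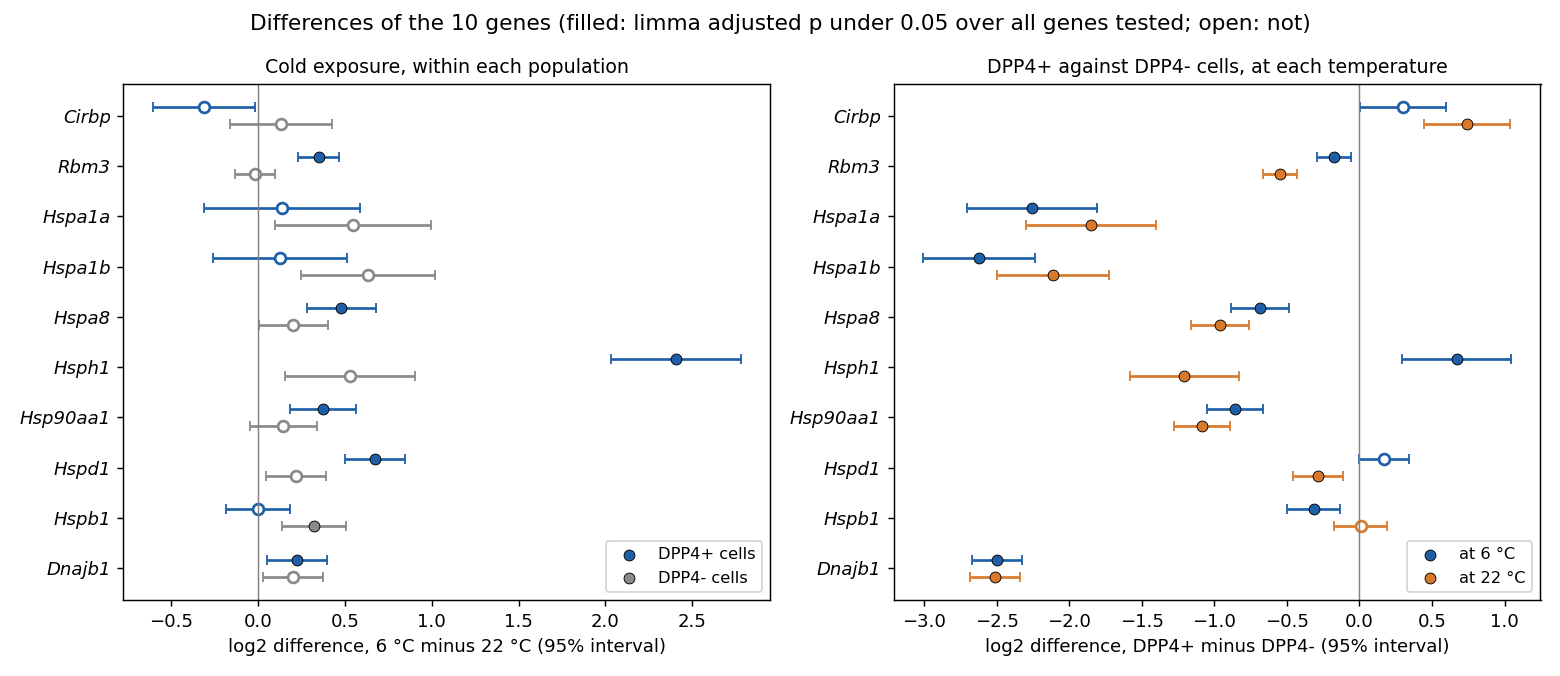
Fitted log2 differences of the 10 genes with 95% intervals: left, 6 °C minus 22 °C in DPP4+ cells and in DPP4- cells; right, DPP4+ minus DPP4- cells at 6 °C and at 22 °C, with filled points for a limma adjusted p under 0.05 over all genes tested. Hsph1 stands alone at 2.40 on the left, and on the right it lies at 0.67 at 6 °C and -1.21 at 22 °C.

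Other readouts moved beside the difference between the populations. A list of 23 immediate early and dissociation genes, with the 10 genes left out, summed to 89118 to 137982 and 93597 to 118601 normalized reads in DPP4+ cells at 6 °C and 22 °C, against 300748 to 354937 and 301516 to 412199 in DPP4- cells. At 22 °C, 20 of the 23 were lower in DPP4+ cells and 3 were higher, and their part in the lower heat shock genes of DPP4+ cells was not tested. Markers of other cells differed as well at 22 °C: in DPP4+ cells 3 of 4 endothelial, 2 of 3 leukocyte, 2 of 2 Schwann cell and 4 of 6 pericyte markers tested were lower, and 2 of 4 mature adipocyte and 1 of 6 pericyte markers were higher. The endothelial sum was 45.4 to 148 normalized reads in DPP4+ cells, against 169 to 282 in DPP4- cells, the leukocyte sum 64.0 to 81.4 against 126 to 180.1, and the Schwann cell sum 11.3 to 17.7 against 86.9 to 393. The pericyte sum was 5583 to 7351 in DPP4+ cells, against 1498 to 2201 in DPP4- cells. Most of the sum in DPP4+ cells was Acta2, which averaged 6046 normalized reads there and 45.6 in DPP4- cells. Notch3, Myh11 and Rgs5 went the other way, at 239, 77.0 and 4.95 in DPP4+ cells, against 1594, 152 and 22.3. The mature adipocyte sum was 559 to 803 in DPP4+ cells, against 16.2 to 116, and the part of all these was not tested. With cold, 3 of the 23 rose and 1 fell in DPP4+ cells and none passed in DPP4- cells. The stress-inducible Ier3 rose 2.22-fold and the transcription factor Cebpb 1.4-fold in cold DPP4+ cells (limma adjusted p 2.74e-07 and 1.28e-04), and Socs3, a feedback inhibitor of cytokine signalling, was 5.41-fold lower in DPP4+ cells at 22 °C.

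Markers of other cell types moved with cold in DPP4+ cells as well. Of 4 endothelial markers tested out of 5 listed, 1 rose in cold DPP4+ cells, Kdr, which averaged 251 normalized reads at 6 °C and 30.3 at 22 °C, and the summed level was 238 to 336 normalized reads at 6 °C, against 45.4 to 148 at 22 °C, while Pecam1, Cdh5, Tie1 and Emcn averaged under 25 in both groups. Of 3 leukocyte markers tested out of 7 listed, 1 rose, Csf1r (88.4 at 6 °C and 32.0 at 22 °C), and the sum was 94.2 to 150.1 at 6 °C, against 64.0 to 81.4 at 22 °C, with Ptprc under 4 and Cd3e at 0 in all 5 cold libraries. Of 6 pericyte and smooth muscle markers 3 fell and 1 rose, the sum being 2253 to 4010.5 at 6 °C, against 5583 to 7351 at 22 °C, most of it Acta2. Of 4 mature adipocyte markers tested out of 5 listed 1 rose, Ucp1, which averaged 59.8 normalized reads at 6 °C and 0.822 at 22 °C. Adipoq, Plin1 and Cidec averaged 230, 172 and 6.41 at 6 °C, against 332, 342 and 8.22 at 22 °C. The sum was 319 to 586 at 6 °C, against 559 to 803 at 22 °C. The sorting marker Pdgfrb itself averaged 1505 ± 80.7 normalized reads at 6 °C and 2942 ± 226 at 22 °C in DPP4+ cells (limma adjusted p = 5.08e-10). The part of these in the rise of the chaperone genes was not tested.

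Hspa1a and Hspa1b lie next to each other on chromosome 17 and are near-identical copies, with 58.8% of the 50-base windows of the Hspa1a transcript found exactly in Hspa1b and 62.3% the other way, so how reads were divided between them is uncertain. The ratio of Hspa1a to Hspa1b was 0.70 ± 0.079 and 0.69 ± 0.041 in DPP4+ cells at 6 °C and 22 °C, against 0.54 ± 0.028 and 0.58 ± 0.036 in DPP4- cells (SD, n = 5 each). The ranges of the ratio at 6 °C, 0.604 to 0.815 in DPP4+ and 0.514 to 0.587 in DPP4- cells, did not overlap, and at 22 °C the lowest DPP4+ and the highest DPP4- ratio were both 0.623. The sum of both genes, which does not depend on the division between them, was 1406 ± 352 and 1261 ± 178 normalized reads in DPP4+ cells at 6 °C and 22 °C, against 7814 ± 1897 and 5167 ± 1195 in DPP4- cells. In the annotation 19% of the Hspa1a exon bases are also covered by a predicted gene on the other strand, Gm20481.

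Chaperone genes outside the 10 were counted by list. Of 14 genes of the cytosolic chaperonin TRiC and of prefoldin, which hands clients to it, 11 rose and none fell in cold DPP4+ cells, with a median log2 difference of 0.31, and none of 14 passed in DPP4- cells. The TRiC subunits Cct3 and Cct6a averaged 2814 ± 282 and 1614 ± 135 normalized reads in cold DPP4+ cells, against 1731 ± 78.7 and 1106 ± 35.4 in DPP4+ cells at 22 °C, rises of 1.63- and 1.46-fold (limma adjusted p 1.92e-08 and 1.16e-07). Their cold effects differed from those in DPP4- cells by 0.68 and 0.56 on the log2 scale (limma adjusted p 1.21e-05 and 2.34e-05). Of 16 genes of the HSP90 system 10 rose and 2 fell in cold DPP4+ cells. The co-chaperones Chordc1 and Ahsa1, the activator of the HSP90 ATPase, rose 1.46- and 1.38-fold (limma adjusted p 1.61e-08 and 6.56e-07).

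Of 15 other HSP70 chaperones and exchange factors 6 rose and none fell in cold DPP4+ cells. The exchange factors Bag3 and Bag1 averaged 5428 ± 328 and 2071 ± 34 normalized reads at 6 °C, against 3276 ± 401 and 1454 ± 98.8 at 22 °C, rises of 1.66- and 1.42-fold (limma adjusted p 7.68e-08 and 9.52e-09). Bag3, an HSF1 target in human and mouse cells, was 2.63-fold lower in DPP4+ than in DPP4- cells at 22 °C. Of 16 other J-domain proteins of cytosol and nucleus 9 rose and 1 fell in cold DPP4+ cells and 2 rose in DPP4- cells. Dnajc21 and Dnajc2, which act in ribosome assembly and at the ribosome, rose 1.47- and 1.49-fold in DPP4+ cells (limma adjusted p 1.48e-08 and 4.99e-06), and Dnaja1 was 3.32-fold lower in DPP4+ than in DPP4- cells at 22 °C. Of 16 mitochondrial chaperones and proteases 6 rose and 1 fell in cold DPP4+ cells. The mitochondrial HSP70 Hspa9 and its exchange factor Grpel1 rose 1.31- and 1.31-fold (limma adjusted p 1.16e-05 and 2.39e-04).

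The small heat shock proteins other than Hspb1 went the other way. Of 5 tested out of 8 listed, 4 fell and 1 rose in cold DPP4+ cells, with a median log2 difference of -1.48. Hspb7, known from heart and skeletal muscle, averaged 41.6 ± 11.6 normalized reads in cold DPP4+ cells, against 270.3 ± 30.5 in DPP4+ cells at 22 °C, and Hspb2 10.8 ± 3.22 against 34.2 ± 2.21 (limma adjusted p 3.31e-06 and 5.93e-08). At 22 °C Hspb6 had 10.6 times the mean level in DPP4+ cells that it had in DPP4- cells. Several of these genes are known from muscle, and the smooth muscle marker sum was lower in the same libraries, as given above; its part in the result was not tested.

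Among heat shock factors and their regulators, 1 of 4 genes tested rose in cold DPP4+ cells and none fell. Hsf1 averaged 458 ± 18.7 normalized reads at 6 °C and 413 ± 24.8 at 22 °C, with a limma adjusted p of 0.0472 that was lost on leaving out 12 of the 20 libraries, and Hsf2 did not pass (limma adjusted p = 0.154). At 22 °C Hsf1 was lower in DPP4+ than in DPP4- cells, at a log2 difference of -0.50. With totals made equal that difference was 0.11, beside a median of all genes of 0.64. Of 10 genes listed as cold shock domain and related RNA-binding proteins, 7 rose and none fell in cold DPP4+ cells. In cold DPP4- cells 2 fell, Rbmx and Rtn3 (limma adjusted p 0.0221 and 0.0207). Rtn3 encodes a reticulon, which is not an RNA-binding protein. Csdc2 and Rbm14 rose 3.32- and 1.63-fold in DPP4+ cells, at 50.7 ± 11.7 and 565 ± 65.6 normalized reads at 6 °C, against 15.3 ± 2.04 and 347 ± 21.0 at 22 °C (limma adjusted p 3.71e-07 and 1.79e-06). With cold in DPP4- cells none passed of the HSP70, HSP90 and heat shock factor lists, 1 mitochondrial gene rose and 1 small heat shock protein gene fell. In each of these lists the share is to be read against the 23.5% of all genes that rose and the 22.6% that fell in cold DPP4+ cells.

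**Figure D5:**
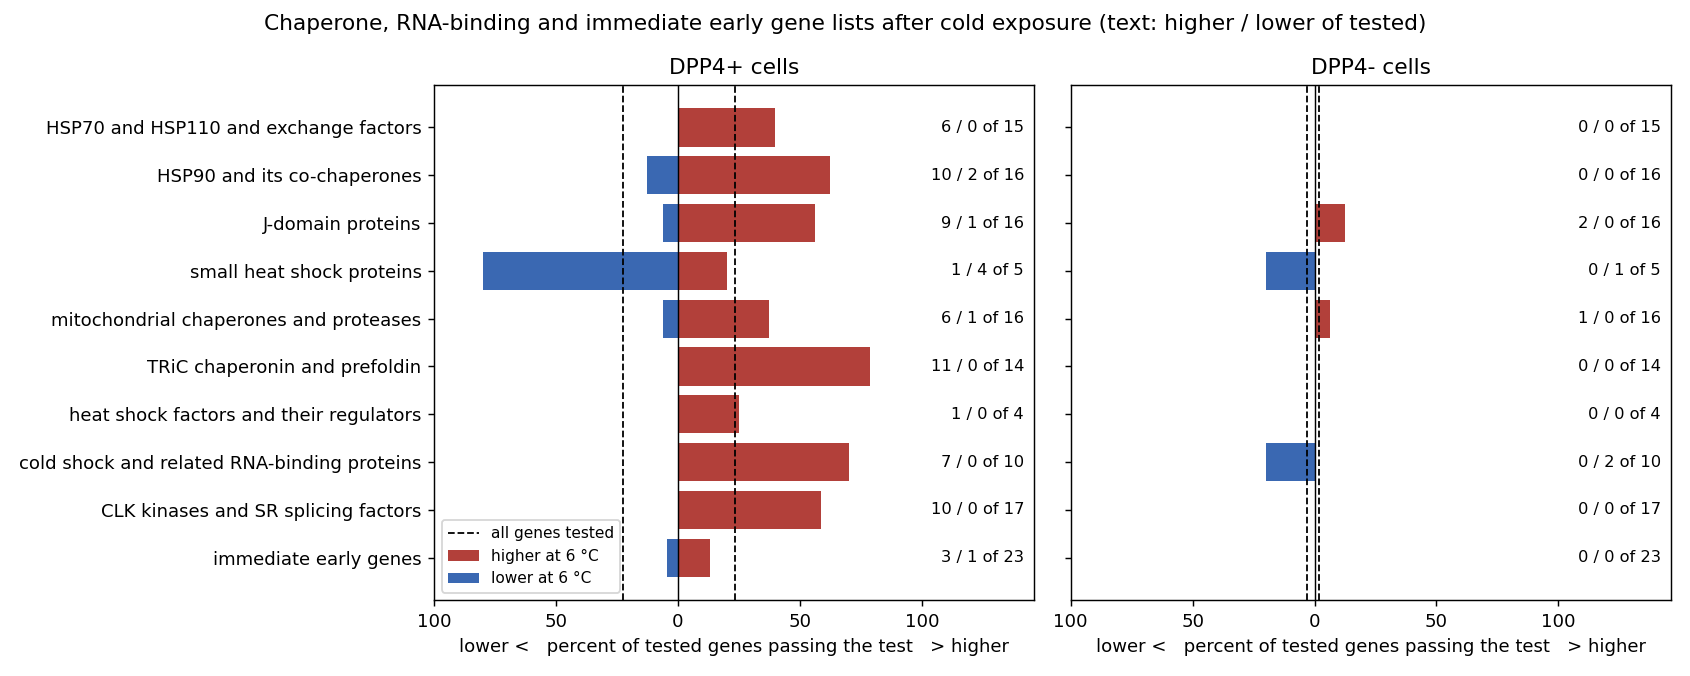
Percent of the tested genes of each list that passed the test with cold (red to the right: higher at 6 °C; blue to the left: lower), in DPP4+ cells and in DPP4- cells, with dashed lines for the percent of all genes tested and the counts of higher and lower genes in each panel. TRiC and prefoldin had 11 of 14 genes higher in DPP4+ cells and none of 14 in DPP4- cells.

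The genes whose pattern over the 20 libraries was most like that of a member were found as those with the smallest root mean square difference of centred log2 values. They were Rsl24d1, Ppp2r2a and Sec61a1 for Rbm3 (0.070 to 0.077 log2 units), Ppan, Snhg1 and Gar1 for Hspa8 (0.13 to 0.14), Hps1, Ncapd3 and Exoc1 for Cirbp (0.12 to 0.18), and Igtp, Ccl11 and Ifi207 for Hspa1a (0.28 to 0.31). Among the members, Hspa8 and Hsp90aa1 were closest, at 0.13 log2 units, followed by Hspa1a and Hspa1b at 0.19, and Cirbp and Dnajb1 were furthest apart, at 1.55. Hsph1 was nearest to Hspd1, at 0.65.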

How the data were processed

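Gene expression was measured by RNA-seq of total RNA in 20 libraries. The deposited values are a signal, normalized counts per gene and library, and have the form of gene counts that were divided by 1 factor per library. The submitters' processing notes name featureCounts 1.4.6, DESeq2 1.6.3, HISAT2 2.0.1 and Trim Galore 0.4.1, and as builds GRCm38 and mm10. Strand, annotation and treatment of reads with several matches are not given in the sources used here. All values (100%) were whole multiples of 1 step per library (tolerance 0.1 read), which gave back the reads. Groups were taken from the labels, and the members and gene lists were chosen with earlier results of these data known. The 13057 of 27179 genes that averaged 10 or more normalized reads were tested on log2(normalized count + 1) with limma 3.58.1 (4 group means, trended and robust variances) in R 4.3.3, two-sided, with Benjamini-Hochberg adjustment within each of 5 contrasts. Log2 differences are on that scale, folds are ratios of group means, and no 2 libraries were identical. On the recovered reads edgeR 4.0.16 (quasi-likelihood) called 6533 genes with cold in DPP4+ and 599 in DPP4- cells and DESeq2 1.42.0 called 6600 and 908, against 6023 and 681 by limma. Genes outside the 10 were named by rule, per list 2 with the smallest p for cold in DPP4+ cells and 1 for DPP4+ against DPP4- cells at 22 °C. The fits were also run on simulated data with fewer changed genes than passed in any contrast here, and no result above rests on that run. Coordinates and promoters are from RefSeq on GRCm38.p6, and exon lengths from GENCODE. Depth limits the lowest member most, Cirbp, with 73 to 454 reads in a library. Alternatives were pseudocounts of 0.5 and 5, no filter or a filter at 50, equal totals, quantile normalization, edgeR, DESeq2, a replicate block and leaving out each library.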

Additional observations from a re-analysis of the deposited data

Results flagged for a closer look

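Cold effects of 4 of the 10 genes differed between the populations by the test of the difference itself (limma, adjusted over all genes tested), in a comparison where 33.2% of all genes passed, so the count itself is near that share. The difference, DPP4+ minus DPP4- on the log2 scale, was 1.88 for Hsph1 (adjusted p = 1.24e-05), 0.46 for Hspd1 (adjusted p = 0.00422), 0.37 for Rbm3 (adjusted p = 0.00109) and -0.32 for Hspb1 (adjusted p = 0.0490). All 5 cold libraries of DPP4+ cells were above all 5 at 22 °C for Hsph1, Hspd1 and Rbm3, as for 19.4% of all genes.

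Library 1 of DPP4- cells at 22 °C stood far from the other 4 for Cirbp, at 238 normalized reads against 109.6 to 145. Library 5 of DPP4- cells at 6 °C stood far from the others for Hsp90aa1, at 4856 normalized reads against 7284 to 7681. Of 40 groups of 5 values examined, these 2 passed Dixon's 95% critical value of 0.71, which chance passes in about 1 of 20 groups.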

How the results depend on the processing

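The direction and the call of Hsph1 held under every alternative with cold in DPP4+ cells, in the difference of the cold effects and between the populations. Over the 10 genes, the number higher with cold in DPP4+ cells was 5 with equal totals and with quantile normalization, where Dnajb1 did not pass, and the number lower with cold in DPP4+ cells was 1, Cirbp, with equal totals, edgeR and DESeq2 and 0 to 1 on leaving out a library. The number higher with cold in DPP4- cells was 2 with the filter at 50, 5 with equal totals, 0 with quantile normalization and 3 with DESeq2, and 0 to 5 on leaving out a library; equal totals called 1142 genes in all there. For the difference, the number higher was 1 with equal totals, and the number lower was 0 without the filter, 2 with equal totals, 0 with DESeq2 and 0 to 1 on leaving out a library, where the gene was Hspb1 or Cirbp. The number higher in DPP4+ cells at 6 °C was 4 with equal totals, 2 with quantile normalization and 1 to 2 on leaving out a library, and at 22 °C it was 3 with equal totals. The number lower in DPP4+ cells at 6 °C was 5 with equal totals and 5 with quantile normalization, against 7 in the main fit. At 22 °C it was 6 with equal totals and 7 with quantile normalization, against 8 in the main fit. The cause was not tested.

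Signs turned with equal totals for Rbm3 with cold in DPP4- cells (0.080), for the Dnajb1 difference (-0.13), for Rbm3 (0.29) and Hspb1 (0.15) at 6 °C and for Rbm3 (0.067), Hspd1 (0.33), Hsf1 (0.11), Pfdn2 (0.064) and Rbmx (0.048) at 22 °C. With equal totals the median of all genes was 0.50 at 6 °C and 0.64 at 22 °C, above each value listed for that temperature. Signs turned with quantile normalization for Rbm3 with cold in DPP4- cells (0.015), the Dnajb1 difference (-0.098) and Hspd1 at 22 °C (0.021), with edgeR for Hspb1 with cold in DPP4+ cells (0.0045) and with DESeq2 for Hspb1 at 22 °C (-0.010). Leaving out a library gave -0.053 to 0.058 for Hspb1 with cold in DPP4+ cells, -0.050 to 0.013 for Rbm3 with cold in DPP4- cells, -0.039 to 0.072 for the Dnajb1 difference and -0.028 to 0.058 for Hspb1 at 22 °C.

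Whether same-numbered libraries share animals is not given in the sources used here, and the numbers were not taken as pairs: deviations of same-numbered libraries correlated at -0.23 to 0.27, and in no pair of groups did all 5 exceed 0.1. Between the cold groups all 5 were positive (0.017 to 0.11) and 4 of 5 libraries correlated best with their own number, a hint from the data and not from the design. With a replicate block, 3 of the 10 genes were higher with cold in DPP4- cells and 2 higher in DPP4+ cells at 6 °C, or 3 with the replicate block within temperature; the Hspa1b difference passed with either block (adjusted p = 0.0164 and 0.0230).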

Other observations

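Of 17 CLK kinases and SR splicing factors, 10 rose and none fell in cold DPP4+ cells, where 23.5% of all genes tested rose. None of 17 passed with cold in DPP4- cells. At 22 °C, 15 were lower and 1 higher in DPP4+ than in DPP4- cells, where 36.2% of all genes were lower and 38.7% higher. The list's median at 22 °C was -0.55, and with totals made equal 0.063, beside a median of all genes of 0.64. The SR proteins Srsf1 and Srsf6 averaged 2282 ± 111 and 2511 ± 62.9 normalized reads in cold DPP4+ cells, against 1819 ± 108 and 2028 ± 52.0 in DPP4+ cells at 22 °C (SD, n = 5 each; limma adjusted p 1.21e-04 and 3.33e-05). Srsf6 was 1.81-fold lower in DPP4+ than in DPP4- cells at 22 °C. The mitochondrial J-domain protein Dnaja3 had 1.38 times the mean level in DPP4+ cells at 22 °C that it had in DPP4- cells, the HSP90 co-chaperone Ahsa2 was 1.57-fold lower, and Pfdn2 and Rbmx had log2 differences of -0.55 and -0.56. The signs of Pfdn2 and Rbmx turned with totals made equal, as given above, and the sizes of all these differences at 22 °C depend on the scaling. Rbmx has the near-identical copy Rbmxl1, so its count is uncertain.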
